A study of Mus musculus with 12 samples.

Results

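Striatal projection neurons that carry the dopamine receptor D2 were examined in single-nucleus RNA sequencing of mouse forebrain at postnatal day 1, with 8 wild-type (WT) and 4 heterozygous (Het) libraries, each from 1 animal. The strain label of all 12 animals was MYT1L S710fsX, a germline frameshift allele of Myt1l, which encodes a transcription factor of postmitotic neurons. Het animals carried 1 copy and WT animals none, and no animal received a treatment. The WT libraries came from 5 males (M1 to M5) and 3 females (F1 to F3), and the Het libraries from 3 males (M1 to M3) and 1 female (F1). The D2 nuclei were selected on their own measured UMIs (unique molecular identifiers, each marking 1 captured RNA molecule). A nucleus had to hold 800 to 6000 UMIs, 300 to 3000 genes and at most 1% mitochondrial UMIs. It also had to hold at least 1 UMI of Drd2, Penk, Adora2a or Gpr6, at least 1 of Rarb or Rxrg, and 0 of Drd1, Tac1, Isl1 and Ebf1. This rule was met by 2037 of the 101802 filtered nuclei, out of 126684 barcodes in the files, and 0 barcodes occurred in more than 1 library. For comparison, D1 nuclei were those with at least 1 UMI of Drd1, Tac1, Isl1 or Ebf1, at least 1 of Rarb or Rxrg and 0 of Drd2, Penk, Adora2a and Gpr6, and there were 7272 of them.

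The striatum sends its output through GABAergic projection neurons of 2 main kinds. Neurons of the direct pathway project to the output nuclei of the basal ganglia, express the dopamine receptor D1 and substance P, and are excited by dopamine. Neurons of the indirect pathway act through the external globus pallidus, express the D2 receptor, enkephalin and an adenosine receptor encoded by Adora2a, and are restrained by dopamine. Both kinds arise from the lateral ganglionic eminence, and retinoic acid signalling through Rarb takes part in the differentiation of striatal projection neurons. The LIM homeodomain factor Isl1 and the factor Ebf1 mark the direct-pathway lineage.

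The genes of the rule describe how the nuclei were chosen and were not tested. Drd2 was detected in 1803 of the 2037 nuclei (88.5%), Adora2a in 271 (13.3%), the enkephalin precursor Penk in 188 (9.23%) and the orphan receptor Gpr6 in 79 (3.88%). Drd2 alone of the 4 brought in 1534 nuclei, Adora2a alone 108, Penk alone 78 and Gpr6 alone 37. Rarb was detected in 1980 nuclei and its partner Rxrg, a retinoid X receptor, in 953. Many nuclei stood at the threshold, with exactly 1 UMI of the 4 indirect-pathway genes in 1180 nuclei and 2 or more in 856. Just outside it, 8379 filtered nuclei had Rarb or Rxrg and none of the 8 pathway genes, 796 had an indirect-pathway gene without Rarb or Rxrg, and 302 had Rarb or Rxrg together with UMIs of both pathways. The D2 nuclei had a median of 2101 UMIs and 1252 genes, against 2460.5 UMIs and 1391 genes in D1 nuclei.

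The label was checked against genes that the rule did not use. Gad1 or Gad2, the enzymes that make GABA, was detected in 61.7% of D2 nuclei, in 60.7% of D1 nuclei and in 21.7% of all filtered nuclei, whose median was 2000 UMIs. Levels are given as CPM, the counts of a gene scaled to the total UMIs of its sum, taken over the nuclei of a class in a library. Pde10a, a phosphodiesterase rich in striatal projection neurons, averaged 1873 CPM in D2 nuclei against 310 CPM in excitatory reference nuclei (at least 3 UMIs of a set of excitatory neuron genes that includes Neurod2, Neurod6 and Slc17a7, and none of Gad1 and Gad2). Foxp1, a Forkhead factor of striatal projection neurons, averaged 3763 against 1055 CPM, and Bcl11b, a zinc finger factor of the same cells, 820 against 78.6 CPM. Meis2, a homeodomain factor of the lateral ganglionic eminence, averaged 3229 against 931 CPM. Of 18 genes of the striatal list, which leaves out Gad1 and Gad2 because they define the reference, 15 had a higher mean in D2 nuclei than in the reference. The 3 with a lower mean were Arpp21 (2412 against 4218 CPM), Ptpn5 (107 against 130 CPM) and Mn1 (72.6 against 74.7 CPM). Ppp1r1b, which encodes DARPP-32, was low at 15.1 CPM, and Chrm4 was at 0 in the D2 nuclei. The gate was passed by 88 of 36148 excitatory reference nuclei, whose median was 2617 UMIs, which is 0.243% (95% Wilson interval 0.198% to 0.300%, covering counting error only). That is the rate for excitatory nuclei without Gad1 and Gad2, beside a share of 2.00% over all filtered nuclei. The rate in other cell types outside the striatum was not measured.

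Outside WT M4, markers of other cell types were low or moderate in the D2 nuclei. The 10 excitatory markers summed to 182 to 516 CPM in WT and 338 to 503 CPM in Het D2 nuclei, against 2397 CPM or more in every library of the excitatory reference. The 9 astroglia and progenitor markers ranged from 115 to 217.9 CPM in WT and 128 to 298 CPM in Het libraries, and the 7 oligodendrocyte lineage markers from 36.3 to 114 CPM and from 61.0 to 77.4 CPM. The 12 interneuron markers ranged from 242 to 5521.5 CPM in WT and from 238 to 578 CPM in Het libraries, and the 11 microglia and vessel markers from 40.2 to 609 CPM and from 35.1 to 146 CPM. The highest WT value of both lists came from WT M4, where the interneuron sum was nearly all Adarb2, at 5255 CPM. In WT libraries the interneuron markers summed to 1217 to 2161 CPM in D1 nuclei and to 216 to 410 CPM in the excitatory reference. In all, 194 D2 nuclei held at least 3 UMIs of the excitatory genes, 37 held at least 2 UMIs of the fibroblast collagens Col1a1, Col1a2 and Col3a1, and 138 were marked as likely doublets. The part of such nuclei in the results below was not tested beyond the values given with and without them.

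The first comparison asked whether Het forebrains held more or fewer D2 nuclei. The D2 share of filtered nuclei in the WT libraries was 2.68% in M1, 1.80% in M2, 1.92% in M3, 0.185% in M4, 1.45% in M5, 1.30% in F1, 2.06% in F2 and 1.83% in F3. In the Het libraries it was 1.88% in M1, 3.07% in M2, 1.81% in M3 and 2.64% in F1. The groups overlapped, with Het M1, Het M3 and Het F1 inside the WT range and Het M2 above it. WT M4 stood apart from all other libraries, with 10 D2 nuclei of 5399 (95% Wilson interval 0.101% to 0.341%) and 39 D1 nuclei. This interval holds the 0.243% at which excitatory reference nuclei of all libraries together passed the gate. The share of WT M4 could therefore not by itself be told from that rate, which was not taken within this library. Of the 10 nuclei, 20.0% held at least 2 collagen UMIs, and their Adarb2 level was 5255 CPM. Their excitatory markers summed to 419 CPM, against 2397 CPM or more in the excitatory reference. The 20 genes of the striatal list, Gad1 and Gad2 among them, summed to 11386 CPM or more in D2 nuclei of every WT library. In the WT reference they summed to at most 7374 CPM. That reference lacks Gad1 and Gad2 by its definition and holds excitatory neurons alone. These sums therefore cannot tell striatal from other GABAergic nuclei. The 8 WT libraries had a mean share of 1.65% ± 0.724 (SD), and the 4 Het libraries one of 2.35% ± 0.608 (SD), higher than the WT mean in 4 of 4 Het libraries. That mean was lowered by WT M4, and Het M3, at 1.81%, lay below the WT median of 1.82%. The difference of 0.697 percentage points was within the spread between libraries (two-sided exact permutation p = 0.125, adjusted p = 0.267 over 3 comparisons, smallest p possible 0.00404). Without WT M4 the difference was 0.488 points (exact permutation p = 0.188), and without Het M2 0.459 points (exact permutation p = 0.376). With at least 2 UMIs required in the gate it was 0.313 points, and with each nucleus thinned to 800 UMIs 0.339 points (exact permutation p = 0.145 for both). Both settings also lowered the shares themselves, thinning to between 0.037% and 1.54% per library. The points of these settings are therefore not on the scale of the main difference. These shares are relative to the other nuclei of each dissection, whose extent can differ between animals. The labels name forebrain as the tissue, while a passage of the study's methods names prefrontal cortex, and the dissected extent was not checked.

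**Figure D1:**
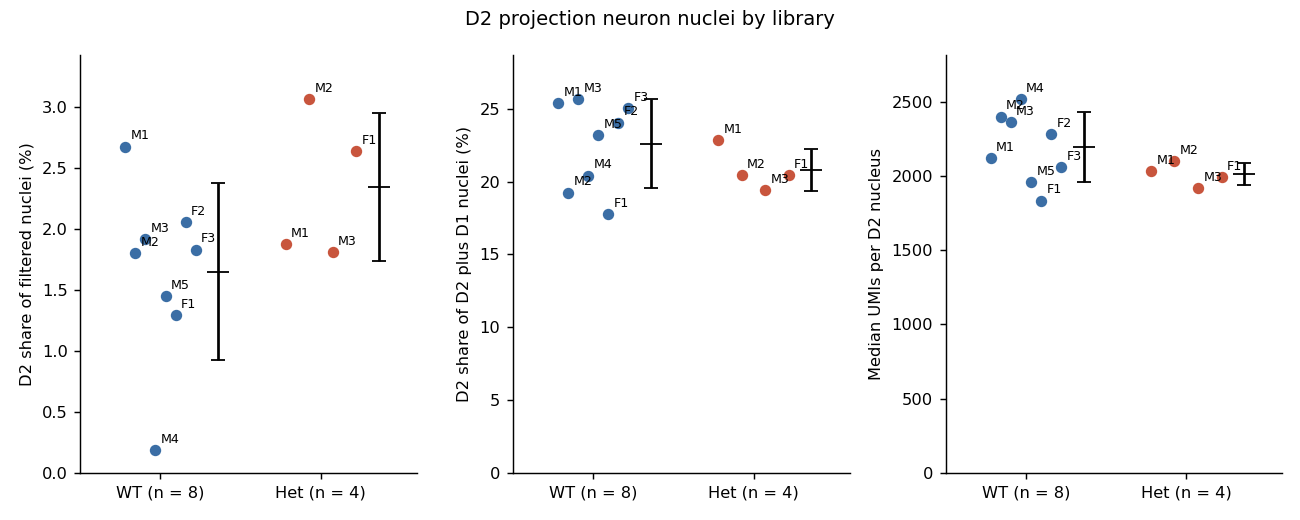
Each point is 1 library (blue WT, red Het), and black bars give the mean ± SD. Left, D2 nuclei as a percentage of filtered nuclei, where WT M4 lay at 0.185% and the other WT libraries at 1.30% or more; middle, D2 nuclei as a percentage of D2 plus D1 nuclei; right, median UMIs per D2 nucleus. The groups overlapped in all 3 panels.

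The D2 share moved with the D1 share from library to library. The mean D1 share of filtered nuclei was 5.56% ± 2.22 (SD) over 8 WT libraries and 9.01% ± 2.54 (SD) over 4 Het libraries, with 0.722% in WT M4. This difference was 3.45 points (exact permutation p = 0.0404; 0.162 after Benjamini-Hochberg adjustment over 4 comparisons of shares and depth). Without WT M4 it was 2.76 points (exact permutation p = 0.0606), and over all single libraries left out the exact permutation p ranged from 0.0303 to 0.121. Over the 12 libraries Pearson's r between both shares was 0.92 (permutation p = 8.00e-05) and Spearman's rho 0.73 (permutation p = 0.00846), the only relation across libraries that was computed. Leaving out WT M4 and Het M2, the libraries farthest from the median D1 share, gave r = 0.74 (permutation p = 0.0207, n = 10) and rho = 0.54 (permutation p = 0.115), so the relation of ranks rested in part on these libraries. Within the 8 WT libraries r was 0.90 (exact permutation p = 0.0148), and without WT M4 it was 0.66 (exact permutation p = 0.119, n = 7). Both shares have the same denominator.

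The balance between both pathways was therefore compared within the striatal nuclei. The rules of both classes do not detect equally well, since Ebf1 averaged 1953 CPM in D1 nuclei and Drd2 577 CPM in D2 nuclei. The level of the ratio is therefore not the proportion of neurons of each kind. D2 nuclei made up 22.6% ± 3.05 of D2 plus D1 nuclei in WT (SD, n = 8), from 17.7% to 25.6% with a median of 23.6%. In Het libraries they made up 22.9% in M1, 20.5% in M2, 19.4% in M3 and 20.5% in F1, with a mean of 20.8% ± 1.46 (SD, n = 4). All 4 Het values lay inside the WT range, and the difference of -1.80 percentage points was within the spread between libraries (exact permutation p = 0.319, adjusted p = 0.319). WT M4, with 20.4% from 10 D2 and 39 D1 nuclei, did not stand apart in this ratio before thinning. The level of this ratio also depends on depth. With 800 UMIs drawn at random from each nucleus and the rule applied again, it lay between 9.52% and 22.4% per library. The lowest was WT M4, with the next, Het M3, at 14.2%. After thinning the D2 share of WT M4 was 0.037% of its 5399 filtered nuclei, so its ratio then rested on very few nuclei. The difference was then -1.38 points (exact permutation p = 0.554). With at least 2 UMIs required in the gate the difference was -0.097 points (exact permutation p = 0.937). The median depth of D2 nuclei was 2193 ± 236 UMIs (SD) over 8 WT libraries and 2013 ± 76.3 UMIs (SD) over 4 Het libraries, a difference of -180 UMIs (exact permutation p = 0.178, adjusted p = 0.267).

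The second comparison asked which genes outside the rule separated D2 from D1 nuclei of the same animals. It used edgeR's quasi-likelihood test on counts summed per library and class, with the library as a block, and a call needed a Benjamini-Hochberg adjusted p under 0.05 and a log2 difference of at least 0.2. Of 10121 genes tested, 524 (5.18%) were higher and 801 (7.91%) lower in D2 nuclei. To be tested, a gene had to reach 13.9 CPM in at least 2 of the sums and a minimum count. Of the 524 higher genes 84 reached that level in D2 nuclei alone, and of the 801 lower genes 92 in D1 nuclei alone, so that a difference was part of their entry. The 10 genes of the rule, all of which passed the filter on low counts, were left out of these numbers. The genes named first are the 12 with the greatest difference in each direction among called genes with at least 50 CPM in the higher class and the same direction in 12 of 12 libraries, a set of 114 higher and 169 lower genes, of which 6 and 8 were predicted or Rik genes and were passed over. Positions are on GRCm38 from GENCODE M21.

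Among genes higher in D2 nuclei, Ptprm led (chr17:66666947-67354457, minus strand). It encodes a receptor-type tyrosine phosphatase that also acts in cell adhesion. Its level in D2 nuclei ranged from 1104 CPM over a median of 2072 to 2536 CPM, and in D1 nuclei from 115 over 171 to 215 CPM, with no overlap between the classes. The log2 difference was 3.59 (SE 0.085, edgeR adjusted p = 7.86e-32). Grik3, a kainate receptor subunit (chr4:125490700-125714173, plus strand), ranged from 190 over 392 to 474 CPM in D2 and from 33.6 over 53.1 to 88.3 CPM in D1 nuclei, a log2 difference of 2.91 (SE 0.084, adjusted p = 1.03e-28). Ikzf2, which encodes the zinc finger factor Helios (chr1:69531214-69687245, minus strand), ranged from 125 over 217 to 346 CPM and from 20.3 over 28.8 to 52.6 CPM, a log2 difference of 2.83 (SE 0.091, adjusted p = 3.20e-27). Again the ranges did not meet, while the same direction in all libraries was part of the choice of these genes. Skap2, an adaptor protein of Src family kinase signalling, averaged 94.5 CPM ± 22.2 in D2 and 11.9 ± 4.13 CPM in D1 nuclei (SD, n = 12 libraries). Gucy1a1, a subunit of the nitric oxide receptor guanylyl cyclase (chr3:82092427-82145789, minus strand), averaged 620 ± 98.5 against 162 ± 21.3 CPM, a log2 difference of 1.91 (SE 0.059, adjusted p = 7.89e-28). The largest level in this group was that of Sgcz, a sarcoglycan gene, at 3967 ± 733 CPM in D2 and 886 ± 147 CPM in D1 nuclei.

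The remaining 6 of the 12 had log2 differences between 1.70 and 2.42. They were Ndst3, an enzyme that sulfates heparan sulfate, Necab1, a neuronal calcium-binding protein, the glycosyltransferase family member Galnt17, the receptor tyrosine kinase Alk, the phosphoinositide phosphatase Fig4 and the sorting receptor Sorl1. Galnt17 had the highest level of these in D2 nuclei, at 1006 ± 210 CPM against 301 ± 66.9 CPM in D1 nuclei (SD, n = 12 libraries). Their libraries overlapped at the edges for some genes. Alk ranged from 38.1 CPM, in the library WT M4, to 275 CPM in D2 and from 26.2 to 86.8 CPM in D1 nuclei. Each library on its own was higher in D2, as the choice of these genes required.

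Among genes lower in D2 nuclei, Ikzf1 (chr11:11685003-11772926, plus strand) stood near 0 in D2 nuclei. It encodes Ikaros, a zinc finger factor related to Helios. It ranged from 0 over 3.11 to 8.79 CPM in D2 nuclei and from 54.9 over 161 to 205 CPM in D1 nuclei, and the ranges did not meet. It passed the filter on low counts through D1 nuclei alone, so these levels are given without a test. Its level in D2 nuclei was as low as in the excitatory reference, where it averaged 2.15 CPM. Ikzf2 and Ikzf1, members of 1 gene family, thus lay on opposite sides, each with the same direction in all 12 libraries by the choice of named genes. Lingo2, a leucine-rich repeat membrane protein (chr4:35706647-36951747, minus strand), ranged from 114 over 344 to 952 CPM in D2 and from 1955 over 3480 to 4050 CPM in D1 nuclei, a log2 difference of -3.40 (SE 0.12, edgeR adjusted p = 3.78e-25). Cntnap3, of the contactin-associated family, averaged 14.6 ± 8.11 CPM against 199 ± 46.0 CPM (SD, n = 12 libraries). Reln, which encodes the secreted glycoprotein reelin (chr5:21884454-22344702, minus strand), averaged 251 ± 88.5 against 1084 ± 206 CPM, a log2 difference of -2.16 (SE 0.088, adjusted p = 1.54e-23). Col25a1, a transmembrane collagen of neurons, averaged 193 ± 56.9 against 819 ± 212 CPM.

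The other 7 genes lower in D2 nuclei had log2 differences between -2.08 and -1.80. Dscam, a homophilic adhesion molecule, averaged 178 ± 111 CPM in D2 and 616 ± 63.8 CPM in D1 nuclei (SD, n = 12 libraries), and Rph3a, which encodes the synaptic vesicle protein rabphilin, 48.9 ± 18.5 against 169 ± 20.5 CPM. The others were Frmd6, Galnt18, the transporter gene Slco1c1, Iqcj and Iqschfp. Iqcj and Iqschfp overlap on the same strand of chromosome 3, so reads may be split between them and their separate levels are uncertain. Slco1c1 is also a gene of brain vessels, and the vessel marker Flt1 had 4.98 CPM in D2 and 34.7 CPM in D1 nuclei. Of the 11 microglia and vessel markers, 7 passed the filter on low counts and 5 of these were lower in D2 nuclei, each at a level under 5 CPM there, so they passed through D1 nuclei. Nuclei with at least 2 collagen UMIs made up 1.82% of D2 and 3.74% of D1 nuclei. With collagen- or excitatory-bearing nuclei removed from both classes, 621 genes were higher and 772 lower, and 1173 of the 1325 called genes (88.5%) were called again. Without WT M4, 563 genes were higher and 799 lower, and 1292 of the 1325 were called again. With at least 2 UMIs required in the gate, 441 were higher and 629 lower, and 896 of the 1325 (67.6%) were called again.

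**Figure D2:**
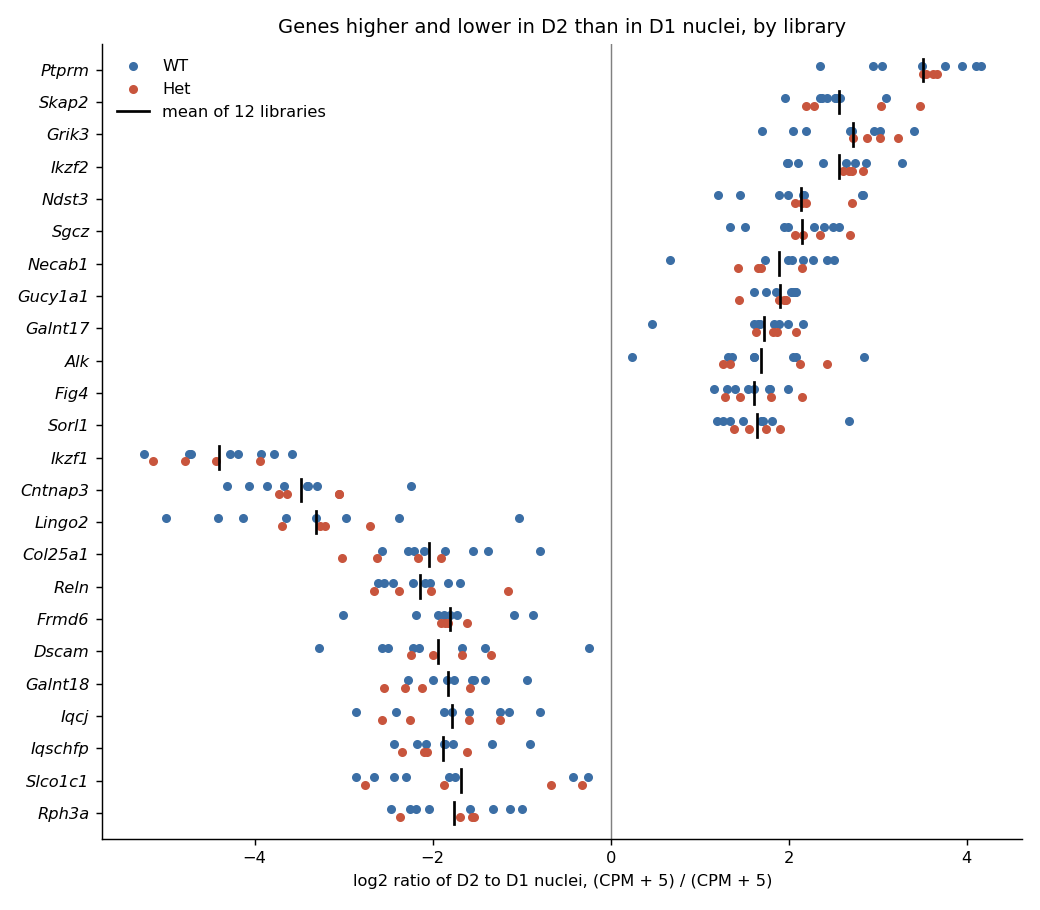
Each point is the log2 ratio of the level in D2 to that in D1 nuclei of 1 library, (CPM + 5) / (CPM + 5), for the 12 named genes higher and the 12 lower in D2 nuclei (blue WT, red Het, black line the mean of 12 libraries). All points of the upper genes lay above 0 and all points of the lower genes below 0, which the choice of these genes required. The points of WT M4 often lay at the edge.

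Genes listed for the indirect and the direct pathway outside the rule were read in the same test. Of 8 other indirect-pathway genes, 6 were tested, 5 were higher and 1 lower in D2 nuclei, beside 5.18% higher and 7.91% lower of all 10121 genes. Besides Ptprm and Grik3, the homeodomain factor Six3 averaged 39.7 against 7.65 CPM, the zinc finger factor Sp9 44.2 against 5.52 CPM and Oprd1, which encodes the delta opioid receptor for enkephalins, 21.97 against 1.41 CPM. The lower gene of this list was Ikzf1, whose place in the list did not match its direction in these nuclei. Of 7 other direct-pathway genes, 5 passed the filter on low counts and were lower. Zfp521, a zinc finger factor, averaged 52.4 against 272 CPM in D1 nuclei, Pdyn, the precursor of dynorphin, 0.588 against 11.1 CPM, and Slc35d3 0.689 against 13.7 CPM. Sfxn1 and Eya1 differed less, with log2 differences of -0.81 (SE 0.14) and -0.64 (SE 0.18). Genes at low levels in both classes were not tested, Gpr52 and Upb1 of the first list and Nxph4 and Chrm4 of the second, while Six3, Sp9 and Oprd1 passed the filter through D2 nuclei alone and Ikzf1, Pdyn and Slc35d3 through D1 nuclei alone. The counts of these short lists were thus partly fixed by the filter, and the levels of these 6 genes are a description.

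The list of striatal projection neuron genes also held Six3, counted above as an indirect-pathway gene, and Ikzf2. Of its 20 genes, all tested, 8 were higher, 2 lower and 10 not called, with Six3 among the higher through D2 nuclei alone, beside 5.18% higher and 7.91% lower of all genes, with a median log2 difference of 0.15. Ikzf2, Six3, Gad1 and Mn1 were higher, Gad1 with 135 against 77.3 CPM (log2 difference 0.83, SE 0.077, edgeR adjusted p = 8.86e-12). Foxp2, a Forkhead factor, was lower, with 901 ± 314 against 1574 ± 212 CPM (SD, n = 12 libraries; log2 difference -0.997, SE 0.084, adjusted p = 5.03e-13), as was the adenylyl cyclase Adcy5 (-0.41, SE 0.090). Among 12 tested Forkhead genes 3 were higher and 3 lower. Foxp1 and Foxo6 were among the higher, and Foxp4, Foxo1 and Foxp2 were lower, so the Foxp genes split in direction. Foxp4 averaged 51.6 against 169 CPM and Foxo1 122 against 287 CPM.

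Genes of the lateral ganglionic eminence and of neuroblasts included 9 higher, 3 lower and 6 not called of 18 tested, with a median log2 difference of 0.26, beside 5.18% higher and 7.91% lower of all 10121 genes. Sp9 and Six3, among the higher, passed the filter on low counts through D2 nuclei alone. Zfhx3, a zinc finger homeobox factor, averaged 882 against 345.5 CPM (log2 difference 1.26, SE 0.056, edgeR adjusted p = 2.52e-22) and Meis1 240 against 101 CPM (1.31, SE 0.071, adjusted p = 2.63e-19). Pbx3, a homeodomain partner of Meis proteins, had 1089 against 1937 CPM (-0.91, SE 0.057), and Etv1 was lower too, as was Ebf3, which passed the filter through D1 nuclei alone. Of 18 striosome and matrix genes, which tell the 2 compartments of the striatum apart, 5 were higher and 7 lower, Pdyn among the lower through D1 nuclei alone, beside the same shares of all genes. Both lists of called genes mixed markers of the compartments: Oprm1, the mu opioid receptor of striosomes, was lower (92.9 against 194.5 CPM), and so was Calb1, a matrix marker (18.9 against 27.8 CPM), while Kcnip1 and Id4 were higher. Rdh10 and Dhrs3, enzymes that act on retinol and retinal, were lower, with Dhrs3, which passed the filter through D1 nuclei alone, at 6.84 against 25.7 CPM, and the other 6 tested genes of the retinoic acid pathway were not called.

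Signalling and surface genes were called in both directions, and their counts stand beside 5.18% higher and 7.91% lower of all 10121 genes. Of 34 tested dopamine and cAMP signalling genes 3 were higher and 5 lower, the lower ones including the G protein regulators Rgs6 (423 against 925 CPM) and Rgs4, which passed the filter through D1 nuclei alone, the cyclase Adcy9 and the G protein subunit Gnai1. Of 21 glutamate receptor genes 6 were higher and 7 lower, with Grik4 and the metabotropic receptor Grm4 higher beside Grik3 (195 against 104 CPM and 62.5 against 27.4 CPM), and Gria4 (600.3 against 1061 CPM) and Grid1 lower. Grik2 was also lower, with 3530 against 4985 CPM, so the kainate receptor genes split in direction. Of 19 GABA and acetylcholine receptor genes 3 were higher, among them Gabra3 (97.4 against 36.1 CPM) and Chrm3 (222 against 110 CPM), and 5 were lower, among them Gabrb1 and Gabra5. Of 26 potassium channel genes 4 were higher and 6 lower, none by more than 0.72 on the log2 scale. Of 22 cadherins 6 were higher, among them Pcdh15, and 8 lower, among them Cdh18 (271 against 720 CPM) and Cdh8 (2010 against 3557 CPM).

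Guidance genes formed the longest list, with 14 higher, 13 lower and 11 not called of 38 tested Eph, ephrin, Slit-Robo, semaphorin and netrin genes, beside 5.18% higher and 7.91% lower of all genes. Sema3e, a secreted semaphorin, averaged 127 against 47.4 CPM (log2 difference 1.34, SE 0.085), and its receptor Plxnd1 32.9 against 64.4 CPM (-1.26, SE 0.13), a ligand and a receptor that differed in opposite directions. Slit2 and Slit3, ligands of Robo receptors, were both higher (1.02, SE 0.10, and 0.88, SE 0.070), as were the netrin receptors Unc5c and Unc5d, whereas the netrin receptor Dcc was lower, at 2096 against 3469 CPM (-0.79, SE 0.056). Of 22 neuronal maturation genes 5 were higher, with Nrgn passing the filter through D2 nuclei alone, and 7 were lower. The excitatory and the astroglia and progenitor markers had 5 tested genes each and 0 called, and 1 of 3 interneuron markers, Adarb2, was lower (822 against 1714 CPM, with the WT M4 value given above among the D2 libraries).

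The third comparison asked how the Myt1l genotype bore on gene expression within D2 nuclei. The targeted gene was read first. Myt1l (chr12:29528384-29923213, plus strand) ranged in WT libraries from 1447 CPM, in M4, over a median of 1999 to 2397 CPM. In the Het libraries it stood at 2117 CPM in M1, 2169 in M2, 2085 in M3 and 2167 in F1. The Het libraries lay inside the WT range, and the log2 difference was 0.08 (SE 0.13, edgeR adjusted p = 1.00). The counts cover the whole gene and not the allele, so this level does not check the genotype labels, and 2 genes on the other strand overlap Myt1l.

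Of 6064 genes tested between Het and WT, 0 were called by edgeR's quasi-likelihood test (0.0%), and the smallest adjusted p was 0.450. At an unadjusted p under 0.05 there were 306 genes (5.05%), 132 higher in Het (2.18%) and 174 lower (2.87%). DESeq2 on the same counts called 1 gene, Cdh8, and edgeR without WT M4 called 0. Without the nuclei that held collagen or excitatory UMIs, edgeR called 2 genes, Tmtc1 and Cdh8, both lower in Het with an adjusted p of 0.0407. The 10 genes of smallest p are described here without a call. The Het and WT libraries of 6 of these 10 genes did not overlap, which their choice by smallest p favours. Over all 6064 genes, 19 (0.313%) had groups that did not overlap. With genotype labels exchanged at random a gene has such groups with an exact permutation probability of 0.00404, so this share was no higher than that.

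Cdh8, a classical cadherin of forebrain neurons (chr8:99024471-99416471, minus strand), stood in WT D2 nuclei at 1881 CPM in the lowest library, with a median of 2272 and a highest value of 2677 CPM. In the Het libraries it was 1753 CPM in M1, 1548 in M2, 1230 in M3 and 1551 in F1. All 4 Het libraries lay below all 8 WT libraries, with a log2 difference of -0.55 (SE 0.13, edgeR adjusted p = 0.450). A330008L17Rik, a lincRNA on the other strand that begins next to the start of Cdh8 (chr8:99416642-99733438), ranged in WT from 94.4 over 131 to 168 CPM and had 93.9, 70.1, 78.7 and 88.4 CPM in Het M1, M2, M3 and F1. These groups also did not overlap, with a gap of less than 1 CPM between the lowest WT and the highest Het library (log2 difference -0.70, SE 0.16, adjusted p = 0.450). In D1 nuclei of the same animals Cdh8 averaged 3792 ± 418 CPM over the WT libraries (SD, n = 8), against 3087 ± 288 CPM over the Het libraries (SD, n = 4), and the difference between the genotype effects in D2 and D1 nuclei was -0.20 (SE 0.12, adjusted p = 1.00).

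Tmtc1, a transmembrane protein of the endoplasmic reticulum (chr6:148232430-148444389, minus strand), ranged in WT from 234 over 272 to 457 CPM, the highest in M4. Its Het values were 204, 177, 182 and 192 CPM in M1, M2, M3 and F1, all below the lowest WT library (log2 difference -0.55, SE 0.12, edgeR adjusted p = 0.450). The transcription cofactor Lmo4 averaged 193 ± 26.1 CPM over the WT libraries (SD, n = 8), against 133 ± 15.5 CPM over the Het libraries (SD, n = 4), with WT M2, at 147 CPM, below Het F1, at 155 CPM. Foxo1, a Forkhead factor regulated by insulin signalling, averaged 135 ± 38.3 against 97.6 ± 8.62 CPM, and WT M4, at 76.2 CPM, lay below all Het libraries. Pcdh17, a protocadherin of corticostriatal circuits, averaged 778 ± 171 against 505 ± 151 CPM, with overlap between the groups. The ubiquitin ligase gene Rnf34, which Kdm2b overlaps on the other strand, averaged 27.6 ± 7.77 against 11.2 ± 2.58 CPM, with 92 UMIs in all 12 libraries together.

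Of the 10 genes, 3 were higher in Het libraries. Aplp1, a relative of the amyloid precursor gene, ranged in WT from 47.9 over 73.8 to 94.9 CPM and had 106, 125, 112 and 95.8 CPM in Het M1, M2, M3 and F1 (log2 difference 0.57, SE 0.16, edgeR adjusted p = 0.904). Fblim1, a filamin-binding LIM protein, averaged 17.2 ± 10.6 CPM over the WT libraries (SD, n = 8), against 42.8 ± 13.0 CPM over the Het libraries (SD, n = 4), with overlap. The predicted gene Gm47283 averaged 458 ± 319 CPM in WT and 1140 ± 167 CPM in Het libraries, and without the filter on low counts edgeR called it (log2 difference 1.29, adjusted p = 5.53e-14). Its WT values formed a lower set of 102 to 269 CPM in M1, M4, M5 and F1 and an upper set of 650 to 814 CPM in M2, M3, F2 and F3, and D1 nuclei of the same libraries averaged 439 ± 298 and 1090 ± 195 CPM. The annotation places this gene on chromosome Y, under another version of its identifier, while females were among the libraries with high values, so its reads may be shared with another copy and its level is uncertain.

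**Figure D3:**
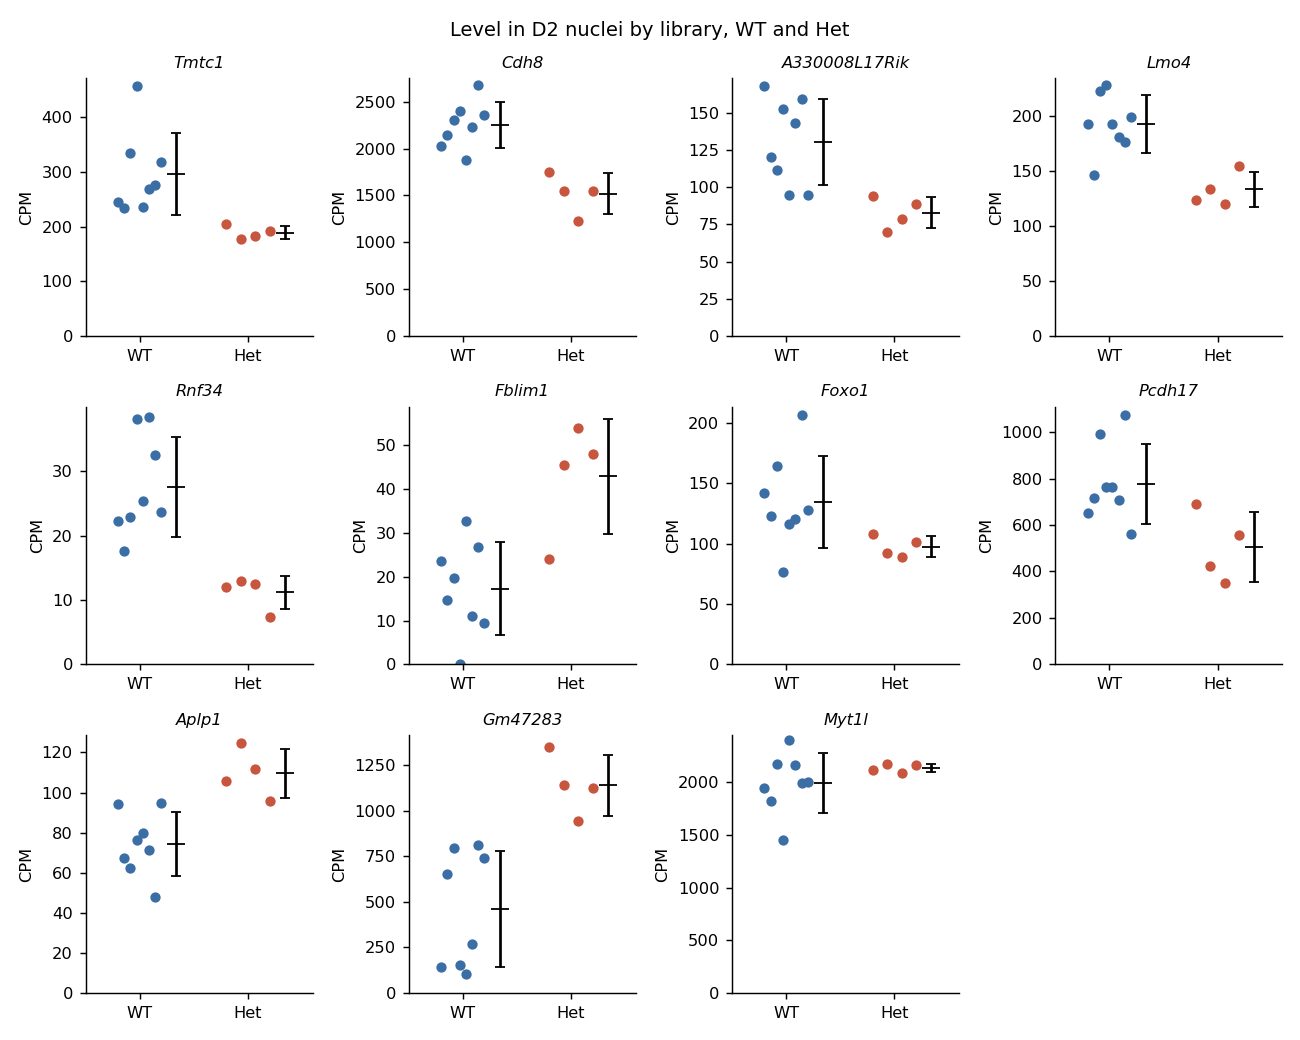
Level in D2 nuclei in CPM for the 10 genes of smallest p between Het and WT and for Myt1l, with 1 point per library (blue WT, n = 8; red Het, n = 4) and black bars for the mean ± SD. The points of both groups are apart for Tmtc1, Cdh8, A330008L17Rik, Rnf34, Aplp1 and Gm47283. The main edgeR fit over 6064 genes called none of these genes, while DESeq2 called Cdh8. Myt1l of the Het libraries lay inside the WT range.

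The genes of the rule overlapped between the genotypes. Drd2 had 559 ± 127 CPM over the WT libraries (SD, n = 8), against 613 ± 24.3 CPM over the Het libraries (SD, n = 4), with Het values of 644, 600.0, 588 and 619 CPM in M1, M2, M3 and F1 inside the WT range of 267 to 688 CPM. Adora2a ranged in WT from 0, in M4, over 51.7 to 71.4 CPM and in Het from 62.3 to 70.4 CPM, with 7 of 8 WT libraries below the lowest Het library. Penk had 57.5 ± 41.0 CPM in WT and 44.4 ± 7.46 CPM in Het, Rarb 1913 ± 152 and 1887 ± 212 CPM, Rxrg 354 ± 104 and 303 ± 30.5 CPM, and Gpr6 15.3 ± 8.65 and 16.4 ± 5.40 CPM. Because the nuclei were chosen by their UMIs of these genes, their levels in the groups are a description.

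Of the 290 genes on the lists of neuronal and striatal genes, 210 were tested between Het and WT and 0 were called by edgeR. At an unadjusted p under 0.05, 8 were higher and 16 lower in Het, beside 2.18% and 2.87% of all 6064 genes, and their median log2 difference was -0.01, against 0.00 over all genes. The cadherins had 0 higher and 5 lower of 19 tested, with a median of -0.14: beside Cdh8 and Pcdh17 these were Cdh12 (481 ± 211 CPM in WT, 326 ± 41.6 CPM in Het), Cdh11 (584 ± 83.0 and 476 ± 46.3 CPM) and Pcdh11x. The guidance genes had 1 higher, Plxna2, and 5 lower of 36 tested, with a median of -0.04, among them the semaphorin receptor Nrp2 (50.7 ± 33.5 CPM in WT, 20.1 ± 8.14 CPM in Het) and Dcc (2258 ± 438 and 1773 ± 111 CPM). The striosome and matrix genes had 1 higher and 4 lower of 13 tested, Cdh8 among the lower. The striatal projection neuron genes had 1 higher, Ikzf2 (191 ± 52.7 CPM in WT, 256 ± 65.7 CPM in Het), and 0 lower of 17 tested, with a median of 0.00. Sox11 and Meis1 were at an unadjusted p under 0.05 with higher levels in Het among 14 genes of the lateral ganglionic eminence and neuroblasts (210.1 ± 42.2 and 268 ± 23.9 CPM for Sox11), and Tshz1 with a lower level (68.8 ± 14.0 and 47.1 ± 19.0 CPM). All adjusted p of these list members were 0.450 or more in the test over 6064 genes, while without the filter on low counts edgeR called Nrp2 (log2 difference -1.24, adjusted p = 0.00878), and the potassium channel, retinoic acid pathway and indirect- and direct-pathway lists had 0 members at an unadjusted p under 0.05. Beside Nrp2, the collagen genes had lower means in Het D2 nuclei, Col1a2 with 102 and 33.8 CPM, Col1a1 with 43.5 and 20.7 CPM in WT and Het. The highest values of both were those of WT M4, at 457 and 152 CPM, so the WT means rested in part on its 10 nuclei. Ptgds went the other way, at 74.0 CPM in Het M1 and 29.5 CPM in Het F1. It stood at 66.4 CPM in WT F3 and at most 6.56 CPM in the other WT libraries. Bnc2 reached 321, 1257 and 302 CPM in WT M3, M4 and F1 and at most 55.9 CPM in a Het library, and Nrp2 was highest in WT M3 and F1, at 118 and 65.9 CPM. Without the nuclei that held collagen or excitatory UMIs, the log2 difference of Nrp2 was -1.41 (SE 0.46, edgeR adjusted p = 0.682).

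Whether the genotype acted differently in D2 than in D1 nuclei was tested as an interaction over 10121 genes. edgeR called 0 (0.0%), and 394 genes (3.89%) were at an unadjusted p under 0.05. For Tmtc1 the difference of effects was -0.28 (SE 0.13), for Fblim1 1.19 (SE 0.28) and for Aplp1 0.39 (SE 0.16), each with an adjusted p of 1.00. For Foxo1 and Gm47283 it was 0.00 (SE 0.18) and 0.06 (SE 0.11). Foxo1 averaged 320 ± 42.0 CPM in WT and 219 ± 44.3 CPM in Het D1 nuclei.

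The last comparison asked how D2 nuclei varied among themselves with the detection of Penk, the transmitter peptide gene of the indirect pathway. Penk was detected in 188 D2 nuclei and undetected in 1849. Penk belongs to the rule, and 78 of the 188 nuclei had entered through Penk alone, whereas each of the others held Drd2, Adora2a or Gpr6. Values over all D2 nuclei are therefore a description. They come from the 8 libraries with at least 10 Penk-detected nuclei (10 to 35 per library; 4 WT and 4 Het), with the library as a block. Of 4001 genes, 36 were past the threshold of the edgeR fit with a higher level (0.9%) and 29 with a lower level (0.725%) in Penk-detected nuclei, and with RLE size factors in place of TMM there were 40 and 15. Nothing is read from these counts, which fell to 12 without WT M1 and were 28, 41, 30 and 41 without Het M1, Het M2, Het M3 and Het F1.

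Slc24a3, a potassium-dependent sodium-calcium exchanger, ranged from 486 to 988 CPM in Penk-detected nuclei and from 221 to 316 CPM in the others, without overlap. Htr2c, a serotonin receptor, averaged 369 ± 262 against 137 ± 50.3 CPM (SD, n = 8 libraries), and Brinp3, a gene of the nervous system, 326 ± 182 against 138 ± 24.7 CPM, each with a higher level in 7 of 8 libraries. On the other side, Tenm2, a teneurin that acts in synaptic adhesion, averaged 3634 ± 567 against 6099 ± 859 CPM, with a lower level in 8 of 8 libraries. The netrin receptor Unc5c ranged from 0 to 219 CPM against 358 to 451 CPM, again without overlap. Zfp804a, a zinc finger gene, the phosphodiesterase Pde4b and the neuregulin Nrg3 had lower levels in 8 of 8 libraries and Egfem1 in 7 of 8.

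Bnc2, Col1a2 and Col1a1, genes of fibroblasts and meninges, also had higher levels in Penk-detected nuclei, Bnc2 in 6 of 8 libraries with 2521 CPM in WT M3 and a mean of 453 CPM. At least 2 collagen UMIs were present in 16 of the 188 Penk-detected and in 21 of the 1849 other D2 nuclei. Among the 110 Penk-detected nuclei that also held Drd2, Adora2a or Gpr6, 1 had at least 2 collagen UMIs. Without the nuclei that held collagen or excitatory UMIs, 41 genes were past the threshold with a higher and 31 with a lower level, and 16 of the 36 and 16 of the 29 genes were among them, while 13 of the 36 and 0 of the 29 were not tested there.

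Both classes were then held to the same genes by keeping nuclei with at least 1 UMI of Drd2, Adora2a or Gpr6, a choice made after seeing the data. This left 4 libraries with at least 10 Penk-detected nuclei, WT M1 with 24, Het M1 with 10, Het M2 with 23 and Het F1 with 15. Of 5167 genes tested there, 14 were higher and 18 lower in Penk-detected nuclei. They included 9 of the 36 and 7 of the 29 genes above, of which 13 and 0 were not tested there. Slc24a3 was higher (log2 difference 0.98, SE 0.22, edgeR adjusted p = 0.0164), as was Adcy5, an adenylyl cyclase of striatal neurons (1.36, SE 0.34, adjusted p = 0.0434). Tenm2 was lower (-0.82, SE 0.14, adjusted p = 0.00119), as were Egfem1 (-1.35, SE 0.22, adjusted p = 0.000676), Unc5c (-1.24, SE 0.26, adjusted p = 0.00817) and Nrg3 (-0.95, SE 0.21, adjusted p = 0.0179). Htr2c (0.95, SE 0.26, adjusted p = 0.0815), Brinp3 (1.03, SE 0.28, adjusted p = 0.0785), Zfp804a (-0.69, SE 0.19, adjusted p = 0.0764) and Pde4b (-0.49, SE 0.16, adjusted p = 0.188) were not called, and the collagen genes and Bnc2 did not pass the filter on low counts.

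**Figure D4:**
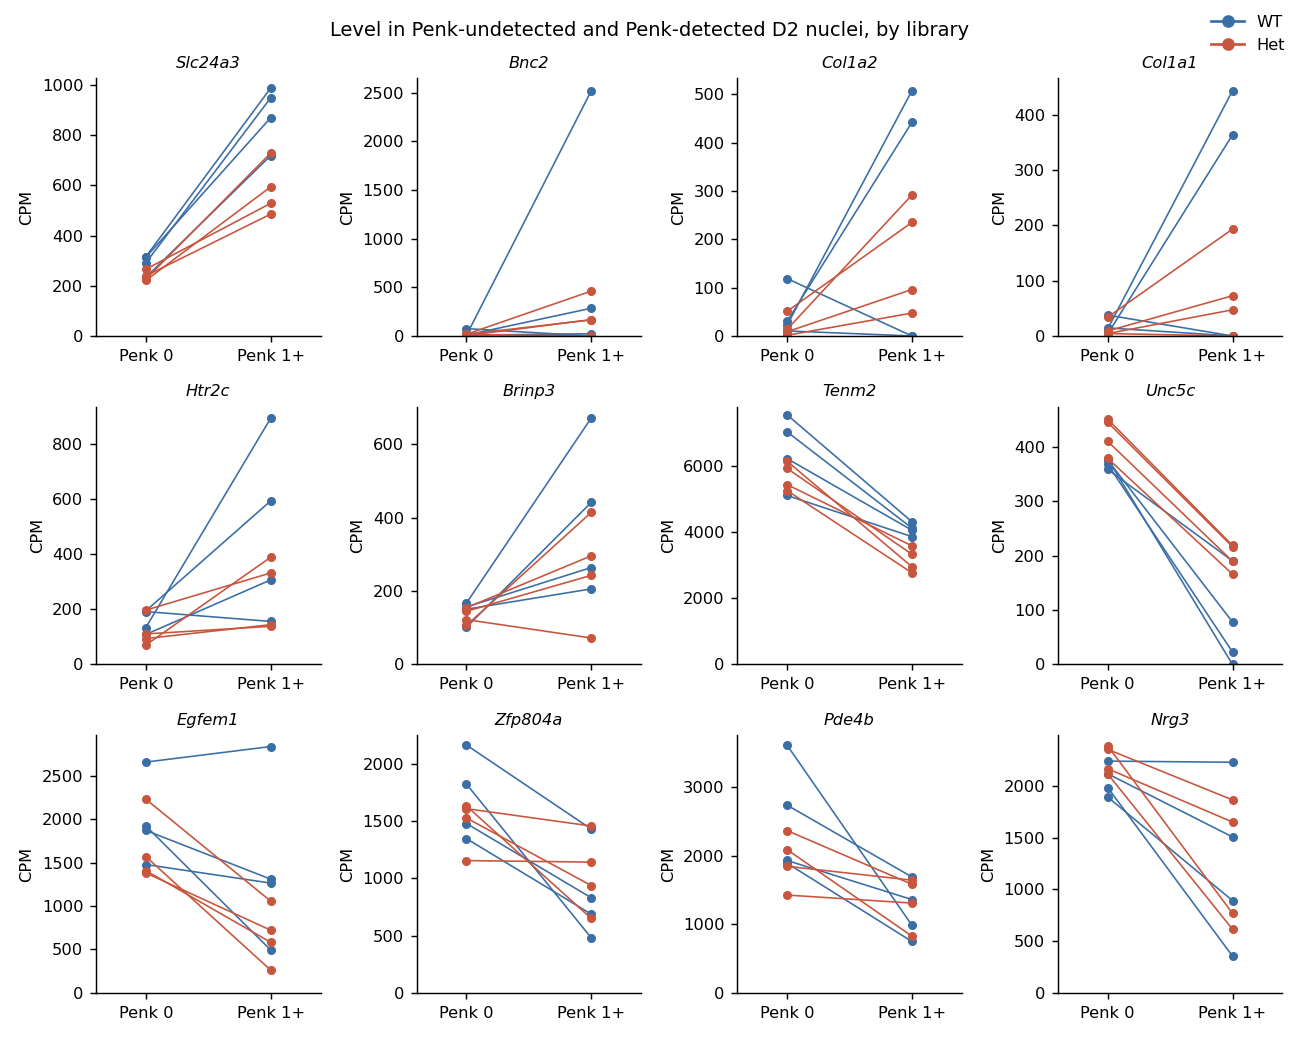
Level in CPM in D2 nuclei without (Penk 0) and with (Penk 1+) a UMI of Penk for the 6 genes of higher and the 6 of lower level with the smallest p over all D2 nuclei, with 1 line per library (blue WT, red Het; 8 libraries). Slc24a3 was higher with Penk in every line, Tenm2 and Unc5c were lower in every line, and Bnc2 was higher in 6 of 8 lines, with 2521 CPM in WT M3.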

How the data were processed

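Nuclei of P1 mouse forebrain were processed with a combinatorial barcoding kit, and the authors counted UMIs on mm10 and deposited expected counts per gene and nucleus, UMIs of ambiguous origin being shared out among genes, which left 6.58% to 6.88% of entries not whole; per the labels Seurat 4.3.0 was among their tools. The sources used here do not give whether counting used strand. Counts were summed per library and class and rounded, since the design had assumed whole counts. D2 nuclei of a library summed to 26261 (WT M4) to 770048 UMIs. The tests were edgeR 4.0.16 (R 4.3.3; TMM, filterByExpr, quasi-likelihood, Benjamini-Hochberg), checked on simulated data, and exact permutation tests with the library as the unit. Doublets were scored with scanpy 1.11.5, the top 5% per library being marked, and kept in the main analysis. Named genes were Myt1l, the genes of the rule and the 10 of smallest p between genotypes, 12 each way by size for D2 against D1, and 6 each way by p for Penk. The members and lists were chosen with earlier results of these data known. Of 55335 versioned identifiers 54587 matched GENCODE M21. Alternatives were DESeq2 1.42.0, RLE size factors, no filter, sex as a covariate, males only, stricter gates, thinning to 800 UMIs and leaving out each library. Some genes of the lists are not reported here.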

Additional observations from a re-analysis of the deposited data

Results flagged for a closer look

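In groups of 4 to 10 libraries, the highest or lowest library was compared with its nearest neighbour for measures outside the rule, and 1 of 28 groups was set apart, where chance sets apart about 1 in 20. Tmtc1 was highest of the WT libraries in WT M4, at 457 CPM with the next at 335 CPM. The 10 D2 nuclei of WT M4 summed to 26261 UMIs.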

How the results depend on the processing

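Over all alternatives run, the difference in D2 share, the D2 share of D2 plus D1 nuclei and the median depth kept their direction. They did not pass the threshold of 0.05 in exact permutation tests, which the sign-flip test of the replicate block had too few pairs to reach. With each library left out they ranged from 0.459 to 0.876 points, from -2.49 to -1.33 points and from -232 to -134 UMIs. In points, the share differences shrank most with at least 2 UMIs in the gate, to 0.313 and -0.097 points, and thinning to 800 UMIs gave 0.339 and -1.38 points. Both settings also lowered the D2 shares of filtered nuclei themselves, so their points are not on the scale of the main difference. The correlation of shares kept its direction. The D2 against D1 calls stayed within 1.5 times of 1325 (1070 to 1560), with 896 of the 1325 called again in the 1070 with at least 2 UMIs in the gate; without the filter on low counts 417 were higher and 1143 lower, against 524 and 801.

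Between Het and WT, 0 genes were called by edgeR, 1 by DESeq2, 9 without the filter on low counts, 2 without collagen- or excitatory-bearing nuclei (chosen after seeing the data) and 4 in the fit with a replicate block, and 0 with each library left out. Nrp2 was among the 9 and the 4 (-1.24, edgeR adjusted p = 0.00878, and -1.81, adjusted p = 0.00280), as were Bnc2, Ptgds and Piezo2. Gm47283 and Mid1 were among the 9, Mid1 with the smallest adjusted p of them (log2 difference -2.27, edgeR adjusted p = 1.89e-35). Bnc2 and Piezo2 were lower in Het like Nrp2, whereas Ptgds was higher (log2 differences of 1.96 and 4.62). For the interaction, 0 were called, 2 without the filter, 2 in males only, 5 with the replicate block, and between 0 and 1 with each library left out, the 1 being Ptgds without WT F3. The labels name no pairing, and same-numbered libraries did not deviate together (correlations of -0.02 to 0.05), although so few noisy values cannot exclude one. The block compared 4 Het with 4 WT libraries, and unblocked, these called 0 and 0. With the block the D2 share differed by 0.427 points (exact sign-flip permutation p = 0.5, in a test that with these 4 pairs cannot fall under 0.05). For Penk, 286 genes were called without the filter, against 65, 32 with Penk left out of the gate (chosen after seeing the data), and 12 to 70 with each library left out. The log2 difference of Myt1l reversed, at -0.014, when 2 UMIs were required in the gate. Depth limited the genotype test to 6064 genes, and WT M4 carried 10 nuclei. The causes of these changes were not tested.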
